A study of Homo sapiens with 6 samples.

Results

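Cullins are the scaffolds of the largest family of ubiquitin ligases, and CRL4-DTL is the cullin complex that clears replication proteins during S phase. Expression of 10 genes was examined here: DTL, DDB1, CUL4A, CUL4B, CUL1, CUL2, CUL3, CUL5, CUL7 and RBX1. Each gene was read from array probe sets (transcript clusters) annotated to its symbol alone, and from the brightest such cluster by its mean over the 6 arrays. A value was obtained for 9 of the 10 genes, out of 15497 genes measured in the same way. Each of the 9 had a single such cluster, so brightness selected nothing among them. The group itself was chosen by a reading of earlier results on these same arrays, in which DTL was already among the genes lower with CONCR siRNA. The difference of DTL is therefore given as a description, and its place among the called genes supports nothing here.

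The cells were A549, an established human lung adenocarcinoma line, grown with 10% fetal calf serum. On 3 arrays the RNA came from cells transfected with a combination of 2 siRNAs against CONCR, a long noncoding RNA whose gene symbol is DDX11-AS1. On the other 3 arrays it came from cells transfected with a control siRNA. Both groups received 40 nM siRNA in a lipid reagent at 2 transfections separated by 24 h. Labelled cDNA was then prepared from 300 ng of each total RNA. The study concerned the role of CONCR in sister chromatid cohesion. It calls the knockdowns independent but does not say that they came from separate cultures, so p-values rest on how these samples vary, and that spread can include technical variation. Because the 2 siRNAs were given together, effects of each could not be separated.

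A cullin-RING ligase holds a RING protein at one end of the cullin, which recruits the ubiquitin-loaded enzyme, and an adaptor with a substrate receptor at the other. The cullin is switched on by attachment of NEDD8 and switched off when the COP9 signalosome removes it. CUL4A and CUL4B use the adaptor DDB1 and receptors called DCAFs. One of these is DTL, also named CDT2, which recognises proteins bound to PCNA, the sliding clamp of replication, on chromatin. Through it the replication licensing factor CDT1, the histone methyltransferase KMT5A and the cyclin-dependent kinase inhibitor CDKN1A are destroyed in S phase. CUL1 uses F-box proteins, CUL2 and CUL5 use elongin-linked receptors, and CUL3 uses BTB proteins. CUL7 works with FBXW8.

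The sequence just upstream of DTL is shown because DTL had the largest difference of the group and is known as a gene of the S phase programme. The RefSeq promoter table (GRCh38.p14) held windows for 9 of the 10 genes. CUL7 was not matched. The 250 bases before each annotated start were searched on both strands for 4 words of the E2F factors, which drive S phase genes (TTTCCCGC, TTTCGCGC, TTTGCCGC and TTTGGCGC), for TTTGAA, a cell cycle homology region, and for CCAAT. None of these words overlap in the sequences printed. DTL lies on the forward strand, and the window is chr1:212035498-212035747, printed 5′ to 3′ with matched words in capitals.
DTL: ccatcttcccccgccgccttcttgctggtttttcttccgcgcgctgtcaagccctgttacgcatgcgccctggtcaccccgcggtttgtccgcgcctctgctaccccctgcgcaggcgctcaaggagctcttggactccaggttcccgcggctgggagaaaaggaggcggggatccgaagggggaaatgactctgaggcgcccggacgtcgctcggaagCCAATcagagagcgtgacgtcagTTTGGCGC
The word TTTGGCGC began 8 bases before the annotated start of DTL, and a CCAAT began 31 bases before it. The other gene of the group with an E2F word was CUL4A, also on the forward strand, where it reads as the reverse complement GCGGGAAA and begins 194 bases before the annotated start of window 2 of 4. The 30 bases around it are chr13:113208489-113208518, with the word in capitals.
CUL4A: agggtggcgagGCGGGAAAggaaaaggcct
An E2F word was present in 2.79% of the 35116 windows in the table, TTTGAA in 13.3% and CCAAT in 32%. Among the 22 windows of the 9 genes, TTTGAA was found for CUL4B and CCAAT for DTL, CUL4B and CUL1. These are matches of letters in these windows, and binding was not measured.

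Values are log2 signals, in which a difference of 1 is a doubling. A gene was called where limma's adjusted p, taken over 32540 tested clusters, was under 0.05. The targeted RNA does not check the labels. CONCR (DDX11-AS1) had 4.23, 4.49 and 4.64 on the CONCR siRNA arrays against 4.71, 4.71 and 4.64 on the control arrays, and its difference of -0.23 missed the threshold of 0.05 (adjusted p = 0.42 in limma). Correlations between arrays were 0.989 to 0.993 within groups and 0.987 to 0.991 between them. Of 5 epithelial markers 4 were above the signal filter (KRT8, KRT18, KRT19 and CDH1, not EPCAM), and their mean log2 signals reached 11.59. Markers of leukocytes, endothelium and fibroblasts reached 4.92, 5.68 and 5.85. Of those measured, 1 of 4, 3 of 5 and 2 of 4 were above the filter. Signals of different markers are not comparable with one another. None of the 10 tested markers was called by limma, with 1 at an unadjusted p under 0.05.

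DTL was the gene of the group that fell after CONCR siRNA. DTL had log2 signals of 7.84, 7.81 and 7.86 on the CONCR siRNA arrays, against 8.46, 8.57 and 8.52 on the control arrays. The groups did not overlap, and a gap of 0.59 separated the highest CONCR siRNA array from the lowest control array. The difference was -0.68 (SE 0.05, 95% confidence interval -0.81 to -0.55, n = 3 per group), or 1.6-fold lower with CONCR siRNA. Leaving out each array in turn gave differences between -0.71 and -0.65. Ranked by signed difference, DTL was number 54 from the bottom of 15497 genes. In RNA from a whole culture, fewer cells in S phase and less DTL RNA per cell cannot be told apart.

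The other subunits of the same ligase did not pass the test. DDB1, the adaptor that links DTL to the cullin, had 8.21, 8.17 and 8.22 on the CONCR siRNA arrays against 8.23, 8.27 and 8.20 on the control arrays. These overlap, and the difference was -0.03 (95% interval -0.15 to 0.09, limma adjusted p = 0.87). RBX1, the RING subunit shared by most cullins, is given no value, because its cluster on the array is also annotated to XPNPEP3.

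The CUL4 paralogues pointed in opposite directions, by small amounts. CUL4A had 7.09, 7.10 and 7.06 on the CONCR siRNA arrays and 7.19, 7.21 and 7.17 on the control arrays, lower on every CONCR siRNA array by a gap of 0.07. Its difference was -0.11 (SE 0.05, 95% interval -0.22 to 0.01, limma adjusted p = 0.42). CUL4B, the X-linked paralogue, had 7.42, 7.32 and 7.35 on the CONCR siRNA arrays and 7.13, 7.23 and 7.31 on the control arrays. It was higher on every CONCR siRNA array, though by a gap of only 0.01, with a difference of 0.14 (SE 0.06, 95% interval -0.01 to 0.29, limma adjusted p = 0.45). Neither passed, and both intervals include 0.

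**Figure D1:**
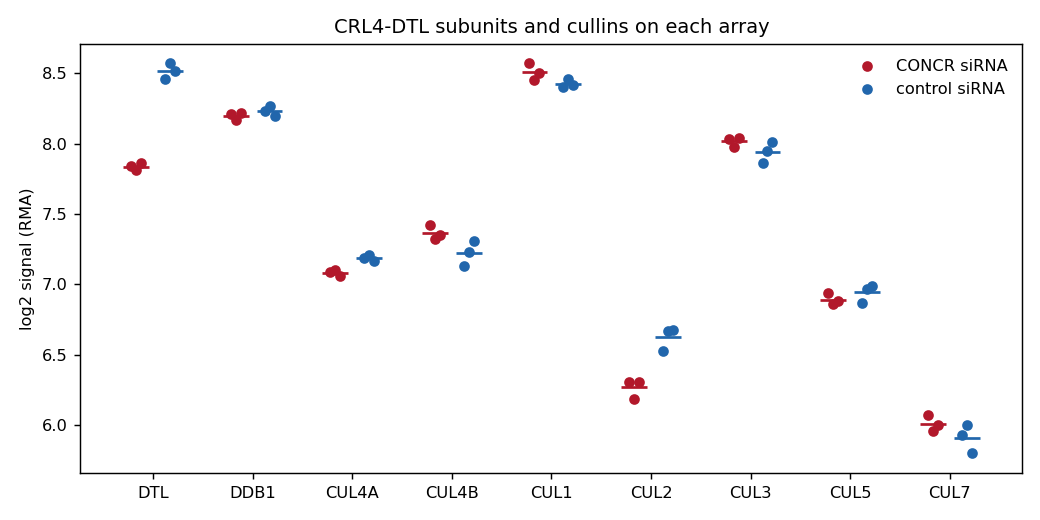
Log2 signal (vertical axis, RMA) of the 9 measured genes on each array. For each gene the 3 CONCR siRNA arrays stand left of the 3 control siRNA arrays, points are arrays and lines are group means. DTL and CUL2 show the widest gaps, 0.59 and 0.21, and signals of different genes are not comparable with one another.

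CUL2, the scaffold of the VHL ligase that degrades HIF alpha subunits, had the second largest difference and lay just outside the threshold. It had 6.31, 6.19 and 6.31 on the CONCR siRNA arrays against 6.53, 6.67 and 6.68 on the control arrays. All 3 CONCR siRNA arrays were below all 3 control arrays, by a gap of 0.21. The difference was -0.35 (SE 0.07, 95% interval -0.51 to -0.19), with a limma adjusted p of 0.057. The adjusted p ranged between 0.012 and 0.24 over the alternatives tried. It passed with array weights (0.031), with 1 cluster per gene or the mean of a gene's clusters (0.012 each), with a strict signal filter (0.013) and with an intensity trend (0.027), and in none of the 6 fits that left out an array.

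The scaffolds of the remaining ligases overlapped between the groups. CUL1, the scaffold of the SCF ligases, had 8.57, 8.45 and 8.50 on the CONCR siRNA arrays and 8.40, 8.46 and 8.42 on the control arrays, a difference of 0.08 (95% interval -0.05 to 0.21, limma adjusted p = 0.65). CUL3, the partner of BTB proteins, had 8.03, 7.98 and 8.04 on the CONCR siRNA arrays and 7.86, 7.95 and 8.01 on the control arrays, a difference of 0.08 (95% interval -0.06 to 0.22, limma adjusted p = 0.69). For both, the highest CONCR siRNA array lay above every control array, while the lowest did not.

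CUL5, the scaffold used by SOCS-box receptors, had 6.94, 6.86 and 6.88 on the CONCR siRNA arrays and 6.87, 6.97 and 6.99 on the control arrays. Its difference was -0.05 (95% interval -0.18 to 0.09, limma adjusted p = 0.83). CUL7, which is mutated in the growth disorder 3M syndrome, had 6.07, 5.96 and 6.0 on the CONCR siRNA arrays and 5.93, 6.0 and 5.80 on the control arrays. Its difference was 0.10 (95% interval -0.06 to 0.26, limma adjusted p = 0.64). For the cullins other than CUL2, the 95% intervals reach no further than -0.22 on the lower side and 0.29 on the higher side.

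**Figure D2:**
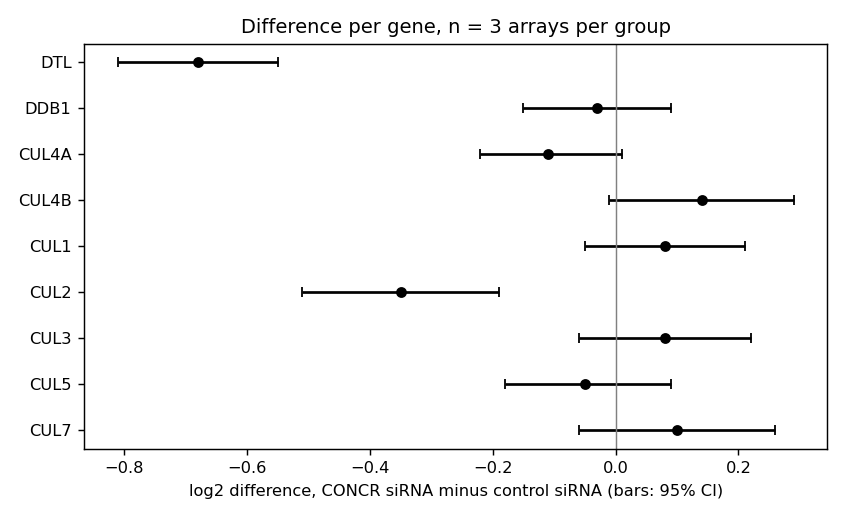
Log2 difference, CONCR siRNA minus control siRNA (horizontal axis), for the 9 measured genes, with 3 arrays per group; bars are 95% confidence intervals from limma. The intervals of DTL and CUL2 lie wholly below 0, and the other 7 include 0. That of DTL is a description, because DTL was known to be lower when the group was chosen.

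Of the 9 genes, 1 was called, and that one is the gene known in advance to be lower. Across all 15497 genes 2.61% were called, 2.01% lower and 0.600% higher, so nothing is read from the count of 1. None of the 7 cullins was called by limma, and 1 of them, CUL2, had an unadjusted p under 0.05, as did 2306 of all 15497 genes. The groups did not overlap in the lower direction for 3 of the 9 genes (DTL, CUL4A and CUL2), against 12.8% of all genes, and in the higher direction for 1 (CUL4B), against 11.7%. The median difference was -0.03 over the 9 genes and 0.012 over all genes.

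The 9 genes also shared an array pattern within the groups. On CONCR siRNA replicate 1 and on control siRNA replicate 2, all 9 lay above their own group's mean, by a median of 0.04 on each array. On CONCR siRNA replicate 2 and control siRNA replicate 1 only 1 of the 9 did. Over all genes the share above the group mean on these 4 arrays was 52.4%, 58.5%, 54.5% and 52.8%. The median deviations on these 4 arrays are of the same size as the differences of DDB1 and CUL5. On CONCR siRNA replicate 3 and control siRNA replicate 3 the 9 genes were mixed. There 4 and 5 of the 9 lay above the group mean, against 42.7% and 39.1% of all genes.

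The substrates of CRL4-DTL were measured at the level of RNA, whereas the ligase acts on protein. CDKN1A, the p21 inhibitor, had 6.97, 7.11 and 7.10 on the CONCR siRNA arrays against 6.87, 6.69 and 6.62 on the control arrays. It was higher on all CONCR siRNA arrays, with a difference of 0.33 (SE 0.08, limma adjusted p = 0.12). It was called with 1 cluster per gene, with the mean of clusters and with a strict filter, where its lowest adjusted p was 0.034. KMT5A had 7.41, 7.45 and 7.43 on the CONCR siRNA arrays and 7.26, 7.29 and 7.31 on the control arrays, a difference of 0.14 (limma adjusted p = 0.28). PCNA had 9.12, 9.05 and 9.05 on the CONCR siRNA arrays and 9.26, 9.16 and 9.26 on the control arrays, a difference of -0.15 (limma adjusted p = 0.31). For KMT5A and PCNA the groups did not overlap. CDT1 overlapped, at 6.75, 6.63 and 6.62 on the CONCR siRNA arrays against 6.78, 6.83 and 6.71 on the control arrays, a difference of -0.11 (limma adjusted p = 0.57). Of 8 listed substrates and PCNA, 7 were measured and none was called by limma, with a median of 0.03. An unadjusted p under 0.05 was found for 4, and for 2306 of all 15497 genes. Of these 4, CDKN1A, KMT5A and TDG were higher (TDG at 0.14, limma adjusted p = 0.31) and PCNA was lower. The groups did not overlap for any of these 4, which is 3 of 7 higher and 1 of 7 lower. Over all genes the groups did not overlap for 11.7% in the higher and 12.8% in the lower direction.

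Among the other receptors and adaptors of CRL4, DET1 fell. DET1 joins COP1 in a complex that targets the transcription factor JUN. It had 5.48, 5.51 and 5.55 on the CONCR siRNA arrays against 5.91, 6.16 and 6.14 on the control arrays, with no overlap. The difference was -0.56 (SE 0.08, limma adjusted p = 0.02). It remained called in 1 of 6 fits that left out an array, without control siRNA replicate 1, and the adjusted p over these fits lay between 0.015 and 0.097. The call was also lost with no filter and with a replicate block. The other 23 of 24 measured genes did not pass, and the list median was 0.01. They include DDB2, the sensor of ultraviolet damage, at 0.18 (limma adjusted p = 0.24), DCAF12 at -0.14 (0.39) and COP1 at 0.12 (0.41).

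Receptors of CUL2 held the strongest fall among all partners. KLHDC10, a receptor that binds degrons at the ends of proteins, had 6.57, 6.46 and 6.52 on the CONCR siRNA arrays against 7.30, 7.45 and 7.42 on the control arrays. The difference was -0.87 (SE 0.06, limma adjusted p = 0.0032), and it was called under all 15 alternatives tried. KLHDC3, a related receptor for degrons at protein C termini, had 5.78, 5.73 and 5.88 on the CONCR siRNA arrays against 6.42, 6.45 and 6.34 on the control arrays. KLHDC3 fell by 0.61 (SE 0.06, limma adjusted p = 0.0078) and missed the threshold without control siRNA replicate 2, with an adjusted p of 0.052. The call of KLHDC3 was also lost with a replicate block. Both genes were lower on all CONCR siRNA arrays, as were CUL2, which was not called, and 12.8% of all genes.

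The remaining 13 of 15 measured genes of this list did not pass, and the median was -0.01. Nearest to the threshold were ZYG11A at 0.18 (limma adjusted p = 0.26), FEM1B at -0.10 (0.53) and APPBP2 at -0.09 (0.6). VHL, the receptor for HIF alpha, was at 0.07 (0.73) and the elongins ELOB and ELOC were at 0.02 (0.95) and 0.08 (0.73). These 3 were named for their roles, after their values were seen.

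**Figure D3:**
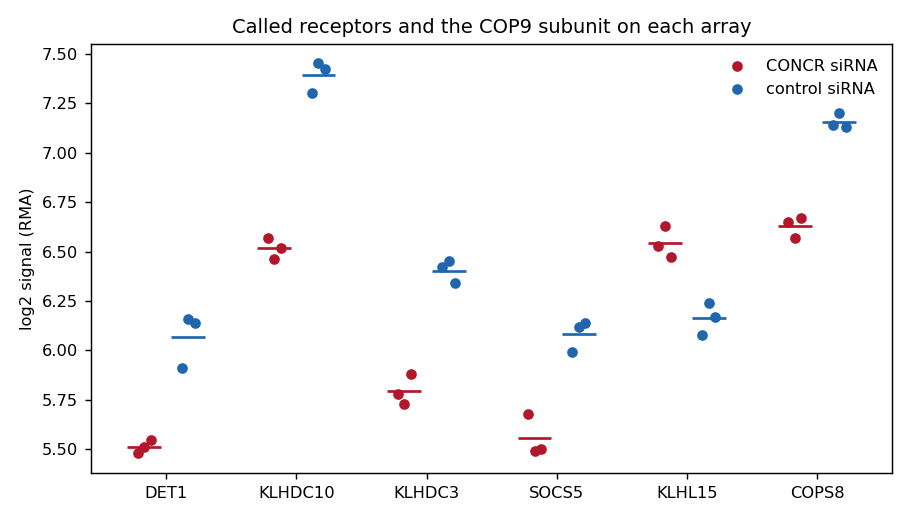
Log2 signal (vertical axis, RMA) on each array for the 6 called partners of the cullins, with 3 CONCR siRNA arrays left of 3 control siRNA arrays for each gene; lines are group means. The groups do not overlap for any of the 6, which are shown because they were called, so the lack of overlap adds nothing. Over all genes the groups do not overlap for 12.8% in the lower and 11.7% in the higher direction. KLHL15 is the one gene of the 6 that is higher with CONCR siRNA.

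For CUL5, the SOCS-box receptor SOCS5, a regulator of growth factor and cytokine signalling, fell. It had 5.68, 5.49 and 5.50 on the CONCR siRNA arrays against 5.99, 6.12 and 6.14 on the control arrays. The difference was -0.53 (SE 0.08, limma adjusted p = 0.023). It kept its call in 2 of 6 fits without an array, those without CONCR siRNA replicate 1 or control siRNA replicate 1, with adjusted p up to 0.11. The call was also lost with no filter and with a replicate block. The other 21 of 22 measured genes did not pass (median -0.01), among them SOCS3 at 0.19 (limma adjusted p = 0.24), SPSB2 at 0.17 (0.48) and SOCS2 at -0.12 (0.56).

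The BTB receptors of CUL3 held the one rise. KLHL15, a receptor for a regulatory subunit of the phosphatase PP2A, had 6.53, 6.63 and 6.47 on the CONCR siRNA arrays against 6.08, 6.24 and 6.17 on the control arrays. The difference was 0.38 (SE 0.07, limma adjusted p = 0.046), close to the threshold. The call was lost whichever array was left out, with adjusted p of 0.1 to 0.16. It was also lost after median centring, with no filter and with a replicate block. The other 41 of 42 measured receptors did not pass, and the median was 0.03. They include KLHL2, a receptor for WNK kinases, at -0.29 (limma adjusted p = 0.096), KBTBD2 at -0.30 (0.096) and KLHL28 at -0.33 (0.13). KEAP1, the NRF2 receptor known to be mutated in A549 cells, was at -0.20 (0.28). It was named for that mutation, after its value was seen.

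None of 27 measured SCF genes was called by limma, with 4 at an unadjusted p under 0.05 and a median of -0.01. Over all genes 2306 of 15497 had such a p. SKP2, the receptor for the cell cycle inhibitor p27, came closest. It had 7.71, 7.64 and 7.63 on the CONCR siRNA arrays against 7.92, 7.98 and 7.92 on the control arrays, with no overlap. The difference was -0.28 (SE 0.05, limma adjusted p = 0.054), with adjusted p between 0.0097 and 0.28 over the alternatives. FBXL20 was at -0.37 (limma adjusted p = 0.079) and FBXW7, the receptor for cyclin E and MYC, at 0.28 (0.15).

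**Figure D4:**
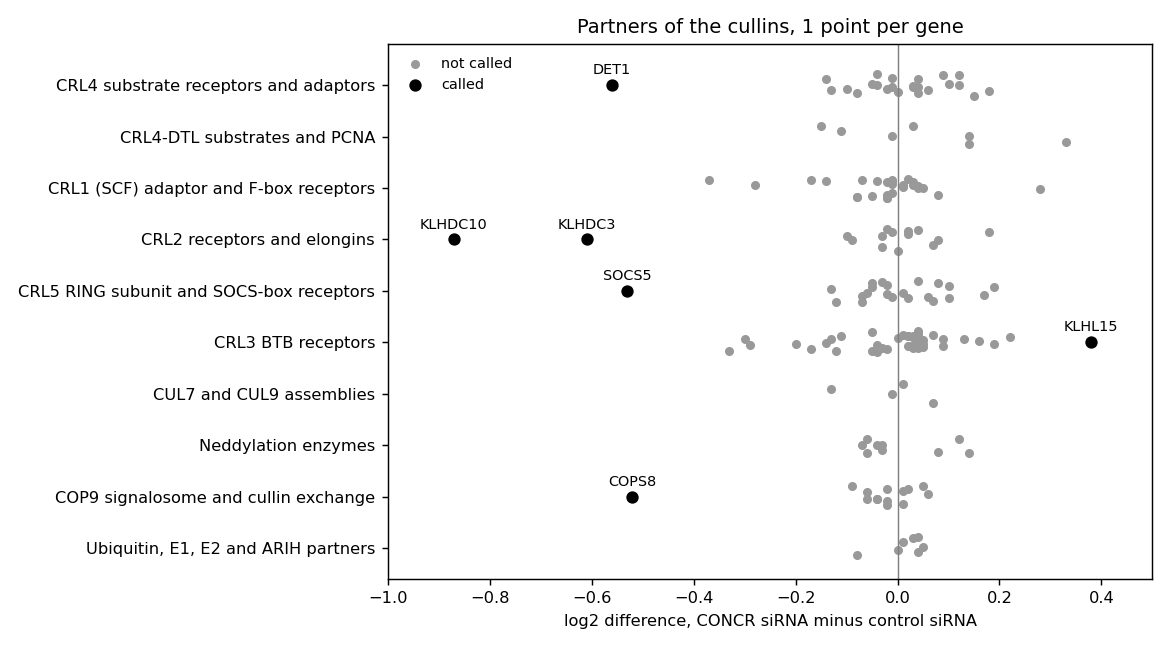
Log2 difference, CONCR siRNA minus control siRNA (horizontal axis), of 171 measured partner genes in 10 lists (rows); each point is a gene and black points passed the limma test. Most genes lie near 0, with 5 called lower and 1 called higher.

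Among the enzymes that switch cullins on and off, COPS8 fell. It is a subunit of the COP9 signalosome, which takes NEDD8 off cullins. COPS8 had 6.65, 6.57 and 6.67 on the CONCR siRNA arrays against 7.14, 7.20 and 7.13 on the control arrays, with no overlap. The difference was -0.52 (SE 0.05, limma adjusted p = 0.0087), and without control siRNA replicate 2 the adjusted p was 0.054. The call was also lost with a replicate block. The other 13 of 14 genes of this list did not pass (median -0.02), including CAND1, which exchanges receptors on cullins, at -0.09 (limma adjusted p = 0.69), the signalosome subunit GPS1 at 0.05 (0.79) and CAND2 at 0.06 (0.82).

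None of 9 measured neddylation genes was called by limma, with 1 at an unadjusted p under 0.05. UBA3, the catalytic subunit of the NEDD8-activating enzyme, had 7.66, 7.65 and 7.65 on the CONCR siRNA arrays and 7.48, 7.50 and 7.54 on the control arrays, a difference of 0.14 (limma adjusted p = 0.27). DCUN1D3 and DCUN1D4, which promote attachment of NEDD8, were at 0.12 (0.49) and -0.07 (0.63). None of 4 genes of the CUL7 and CUL9 assemblies was called by limma, with 1 at an unadjusted p under 0.05. FBXW8 was at -0.13 (limma adjusted p = 0.33), CCDC8 at 0.07 (0.69) and OBSL1 at -0.01 (0.97). Of 7 measured ubiquitin, E1 and E2 genes none was called by limma, with 0 at an unadjusted p under 0.05. UBE2R2 was at -0.08 (limma adjusted p = 0.64), UBA1 at 0.05 (0.85) and UBE2G1 at 0.04 (0.86).

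In all, 171 of 186 listed partners were measured, and 6 were called, 5 lower and 1 higher. This was 3.51% of them, against 2.61% of all genes. The lower calls made up 2.92% and the higher calls 0.585%, against 2.01% and 0.600% of all genes. The median over the partners was 0.00, and 85 of the 171 were below 0, while 45.1% of all genes were. The shares are close to those of all genes. An unadjusted p under 0.05, called genes included, was found for 2306 of all 15497 genes. In the lists it was found for 4 of 7 substrates and PCNA, 9 of 42 BTB receptors and 4 of 27 SCF genes. The counts were 3 of 24 for CRL4 receptors and adaptors, 3 of 15 for the CUL2 and 2 of 22 for the CUL5 list. They were 1 of 9 neddylation, 1 of 4 CUL7 and CUL9, 1 of 14 COP9 and 0 of 7 ubiquitin genes.

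The genes whose profile over the 6 arrays was most like that of DTL were found by the Euclidean distance between log2 signals centred on each gene's own mean. The nearest 5 were MDH1, the cytosolic malate dehydrogenase, ZNF827, a zinc finger protein, STX2, a membrane fusion protein of the syntaxin family, NT5DC3, and ANK2, an ankyrin. Their distances were 0.040, 0.045, 0.048, 0.051 and 0.070. MDH1 had 6.0, 5.99 and 6.01 on the CONCR siRNA arrays against 6.62, 6.71 and 6.71 on the control arrays. ANK2 had 5.09, 5.07 and 5.11 on the CONCR siRNA arrays against 5.68, 5.75 and 5.75 on the control arrays. By Pearson correlation over the 6 arrays 4 of the 5 were again among the nearest 5, with ALDH9A1 in place of NT5DC3. The likeness follows mostly from a similar gap between the groups, and it is a description.

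Within the cullin group, CUL2 was nearest to DTL, at a distance of 0.411 and rank 270 of 15496 genes (r = 0.97 over 6 arrays). CUL4A followed at a distance of 0.707 and rank 1913 (r = 0.94), with a difference of only -0.11 (limma adjusted p = 0.42). Such an r depends largely on the direction of the difference between the groups, and it is a description. CUL4B was farthest, at rank 13708 (r = -0.71). DDB1, the direct partner of DTL, was at rank 4201 (r = 0.56).

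**Figure D5:**
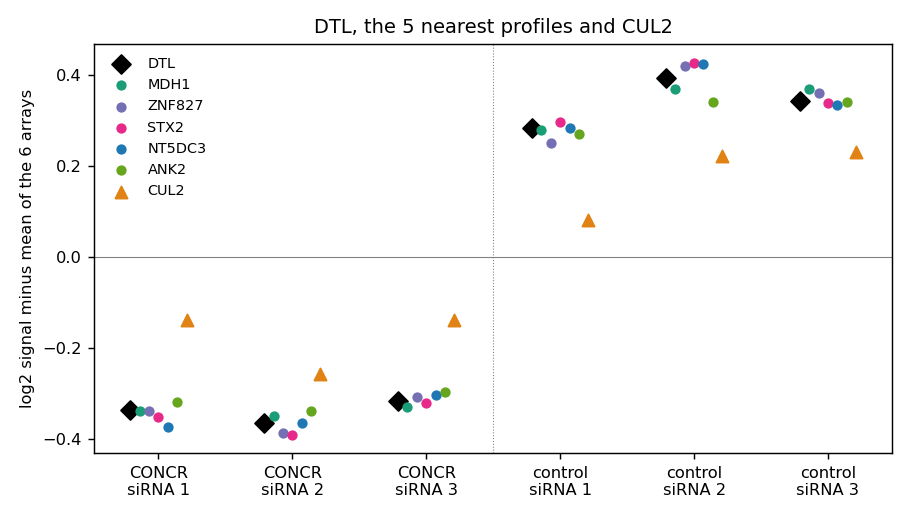
Log2 signal minus each gene's mean over the 6 arrays (vertical axis) on the 3 CONCR siRNA and the 3 control siRNA arrays (horizontal axis), for DTL (diamonds), the 5 nearest genes (circles) and CUL2 (triangles). The circles sit close to DTL on every array, and CUL2 has the same sign with a smaller gap between the groups.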

How the data were processed

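The authors deposited log2 signals from Affymetrix whole-transcript arrays. RMA (background correction, quantile normalization and median polish) in Affymetrix Power Tools made them, per the submitters' processing notes. Its version and the probe sets' genome build are not given in the sources used. Quantile normalization hides a change in total RNA. Precision is limited by the number of arrays, since signals carry no depth.

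Of 67528 transcript clusters, 32540 with a log2 signal above 4 on at least 3 arrays were tested with limma 3.58.1 in R 4.3.3 (lmFit and eBayes). The test was two-sided, p-values were adjusted by Benjamini-Hochberg over all tested clusters, and 0.05 was the threshold. The same test gave 613 called clusters. Every adjusted p is from this fit unless an alternative is named. Symbols came from the platform annotation, updated through an NCBI RefSeq list (21497 by Entrez identifier and 306 by older symbol). A gene was represented by its brightest cluster with 1 symbol.

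The genes, lists and markers were chosen with earlier results of these data known. Named genes are the 10 genes of the group, called genes of each list with up to 3 uncalled ones of smallest p, the 5 genes most like DTL, and PCNA, CDT1, KMT5A and CDKN1A. VHL, ELOB, ELOC and KEAP1 were added after their values were seen. Alternatives were a replicate block, no filter, a strict filter (log2 signal above 6), median centring, quantile normalization, array weights, an intensity trend (robust), 1 cluster per gene, the mean of a gene's clusters, Pearson correlation for the DTL-like profiles, and leaving out each array.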

Additional observations from a re-analysis of the deposited data

How the results depend on the processing

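Directions of the 9 measured genes of the group were kept under the alternatives that gave a value, and CUL7 had none under the strict filter, which it did not pass. Called transcript clusters numbered 613 at first, 958 with 1 cluster per gene, 238 with no filter, 1102 with a strict filter, 965 with an intensity trend and robust estimation, and 129 to 411 when 1 array was left out, the fewest without control siRNA replicate 2. Genes of the group called were 1 at first and 2 (CUL2 beside DTL, whose count is a description) with array weights, 1 cluster per gene, the mean of clusters, a strict filter or a trend. CUL2 was then at -0.37 with array weights and -0.35 in the others. Partners called lower were 5 at first, 8 with array weights or a trend, 10 with 1 cluster per gene or the mean of clusters, 3 with no filter, and 1 to 7 without 1 array. Partners called higher were 1 at first, 2 with 1 cluster per gene or the mean of clusters, 3 with a strict filter, and 0 with median centring, with no filter or without any 1 array. Near-zero OBSL1 changed sign to 0.01 with array weights and ranged from -0.04 to 0.03 without 1 array. UBA1 then ranged from -0.01 to 0.08 and UBE2G1 from 0.00 to 0.07, each changing sign in 1 fit. The cause of these changes was not tested.

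Same-numbered arrays did not deviate together (correlations of -0.268, -0.159 and -0.08, and 0 of 6 arrays closest to their own number). With so few arrays per group, this check cannot show whether same-numbered samples were prepared together, and the replicate block is not set aside by it. With a replicate block 51 clusters, 0 genes of the group, 1 partner lower and 0 higher were called. DTL thus lost its call in that fit, while its difference stayed at -0.68. The mean CONCR signals, 4.46 with CONCR siRNA and 4.69 with control siRNA, are near the filter minimum of 4.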
